A study of Arabidopsis thaliana with 10 samples.

Results

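The genes described here are the expansins and the xyloglucan endotransglucosylase/hydrolases (XTH) of Arabidopsis thaliana. They were taken as every probe set with 1 gene whose symbol in the platform annotation is EXPA, EXPB, EXLA, EXLB or XTH followed by a number. This gave 27 genes among 13513 probe sets with 1 gene: 10 EXPA, 4 EXPB, 3 EXLA, 1 EXLB and 9 XTH genes, each with 1 probe set. Transcript signals came from 10 Affymetrix ATH1 arrays of RNA from whole seedlings, in 5 groups of 2 arrays. Of these, 3 groups had DMSO, the solvent control, and were sampled at 0 h, 4 h or 24 h, and the other two had dexamethasone for 4 h or 24 h. All groups had the Col-0 background, the genotype Atglk1;Atglk2 made by transposon insertion, and hygromycin B in the medium. The seedlings spent 10 days on agar plates and 48 h in shaken flasks of about 100 seedlings with 16 h of light and 8 h of dark a day. Per the series title, the study sought the targets of the transcription factor AtGLK1. The labels name the dexamethasone samples as induced but name no transgene or promoter.

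Plant cells grow when the wall yields to turgor. Alpha-expansins (EXPA) and beta-expansins (EXPB) loosen the wall in acid conditions without cutting its polymers, by loosening contacts between cellulose and other glycans. The expansin-like proteins EXLA and EXLB are related in sequence, and a wall-loosening activity of theirs is not established. XTH enzymes cut xyloglucan, the hemicellulose that coats cellulose, and join the cut end to another xyloglucan chain or to water. In seedlings many of these genes act in elongating roots, root hairs and young leaves.

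The median signal per array lay between 33.9 and 35.9 after the scaling by the authors. Neither GLK1 nor GLK2 had a single-gene probe set in the annotation used here, so the genotype and the induction could not be checked on them. Whether both arrays of a group stem from separate flasks is not stated in the labels, so p-values reflect only how far these samples differed, which may be technical. Replicate 1 of DMSO at 24 h and replicate 2 of dexamethasone at 4 h stood apart from the other 8 arrays on the second axis of variation, which held 23.4% of the variance. The summed signal of 4 defence genes, a list taken from earlier results of these data, was 7204 and 9934 on those arrays and between 352 and 956 on the others. Fitted values of the expansins and XTH genes that rest on these arrays are also given below without both of them where they turned or moved by over 1.5 times. Changes within 1 treatment and values of the other gene lists were not computed without them.

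Of the 27 genes, 19 exceeded percentile 40 of the array on at least 2 arrays and were tested: 12 expansins and 7 XTH genes. Percentile 40 lay at a signal between 19.2 and 20.9, and 14 of the 19 exceeded it on all 10 arrays. The other 8 genes were EXPA16, EXPA21, EXPA24, EXPB2, EXPB5, EXLA3, XTH21 and XTH29. Of these, 7 were below percentile 40 on every array, and EXPA16 exceeded it on 1 array, with a signal of 21.2 on replicate 2 of DMSO at 4 h. The table has no detection calls, so such signals cannot be told from background. Probe sets that match several genes, EXPA23 with EXPA25 and EXPA22 with EXP26, are outside the 27 and reached at most 3.71 and 9.67. Only genes that passed the filter enter the counts below, and signals of different genes are not compared, since each probe set has its own response.

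More of these genes passed between 4 h and 24 h than in any other comparison. At 24 h the transcripts of EXPA8, XTH19 and XTH16 were higher than at 4 h, and those of EXPA20, EXPA4 and EXPA15 were lower. The fit took the 4 arrays at 24 h against the 4 at 4 h with treatment as a covariate. The comparisons with 0 h and those of dexamethasone at each time had 2 arrays against 2, so their counts are not on the same footing. The change within each treatment was not tested. Of the 19 genes tested, 3 passed as higher and 3 as lower in limma (Benjamini-Hochberg adjusted p below 0.05 over 14575 probe sets), where 7.06% of all probe sets passed in either direction, 3.94% as higher and 3.12% as lower. An unadjusted p below 0.05 was found for 8 of the 19 genes and for 20.6% of all probe sets. The 4 h harvest fell at a different clock time from the 0 h and 24 h harvests, so the hour of the day and the duration of treatment cannot be told apart. In whole seedlings, fewer cells of a type and less RNA per cell cannot be told apart either.

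EXPA8 (AT2G40610, chromosome 2), an alpha-expansin, had the largest log2 change of the 19 genes when both treatments were fitted together. Within DMSO that of EXPA20, described below, was larger in size, at -1.32 against 1.28. The signals of EXPA8 at 4 h were 46.2 and 66.0 with DMSO and 78.6 and 51.1 with dexamethasone. At 24 h they were 116 and 169 with DMSO and 146 and 145 with dexamethasone. All 4 arrays at 24 h thus lay above all 4 at 4 h. The mean signal was 60.5 ± 14.7 (SD, n = 4) at 4 h and 144 ± 22.1 (SD, n = 4) at 24 h, which is 1.21 on the log2 scale (SE 0.17, limma adjusted p = 0.00141). The 0 h arrays, at 116 and 141, lay among those at 24 h. Within dexamethasone EXPA8 had 1.14, and the test of the difference between these gave -0.13 (SE 0.33, limma adjusted p = 0.965), or -0.69 without both arrays that stood apart (SE 0.29, limma adjusted p = 0.9995).

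XTH19 (AT4G30290, chromosome 4) belongs to a subgroup of root-expressed XTH enzymes and is the neighbour of XTH18 (AT4G30280) in the RefSeq gene order. Its signals at 4 h were 133 and 98.9 with DMSO and 135 and 94.4 with dexamethasone. The 24 h signals were 172 and 214 with DMSO and 300.0 and 221 with dexamethasone, again with no overlap between times. The log2 change was 0.94 (SE 0.16, limma adjusted p = 0.00609). It was 0.72 within DMSO and 1.16 within dexamethasone. The highest signal of the gene was that of replicate 1 of dexamethasone at 24 h.

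XTH18 had signals of 95.6 and 62.1 with DMSO and 72.3 and 67.8 with dexamethasone at 4 h. By 24 h they were 119 and 77.3 with DMSO and 115 and 96.6 with dexamethasone. The times overlapped, and the log2 change of 0.43 (SE 0.16, limma adjusted p = 0.161) did not pass. It was 0.26 without both arrays that stood apart (limma adjusted p = 0.376). The probe sets of these close relatives may share hybridisation, and this was not tested.

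XTH16 (AT3G23730, chromosome 3), another XTH enzyme, rose less. Its signals at 4 h were 179 and 153 with DMSO and 174 and 158 with dexamethasone. At 24 h they stood at 200.4 and 209 with DMSO and 209 and 257 with dexamethasone. The times did not overlap, and the log2 change was 0.39 (SE 0.10, limma adjusted p = 0.0405). Removal of a single array ended this call for 6 of the 8 arrays, with limma adjusted p between 0.061 and 0.126. The call held when the array removed was replicate 1 of DMSO at 4 h or replicate 1 of DMSO at 24 h.

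**Figure D1:**
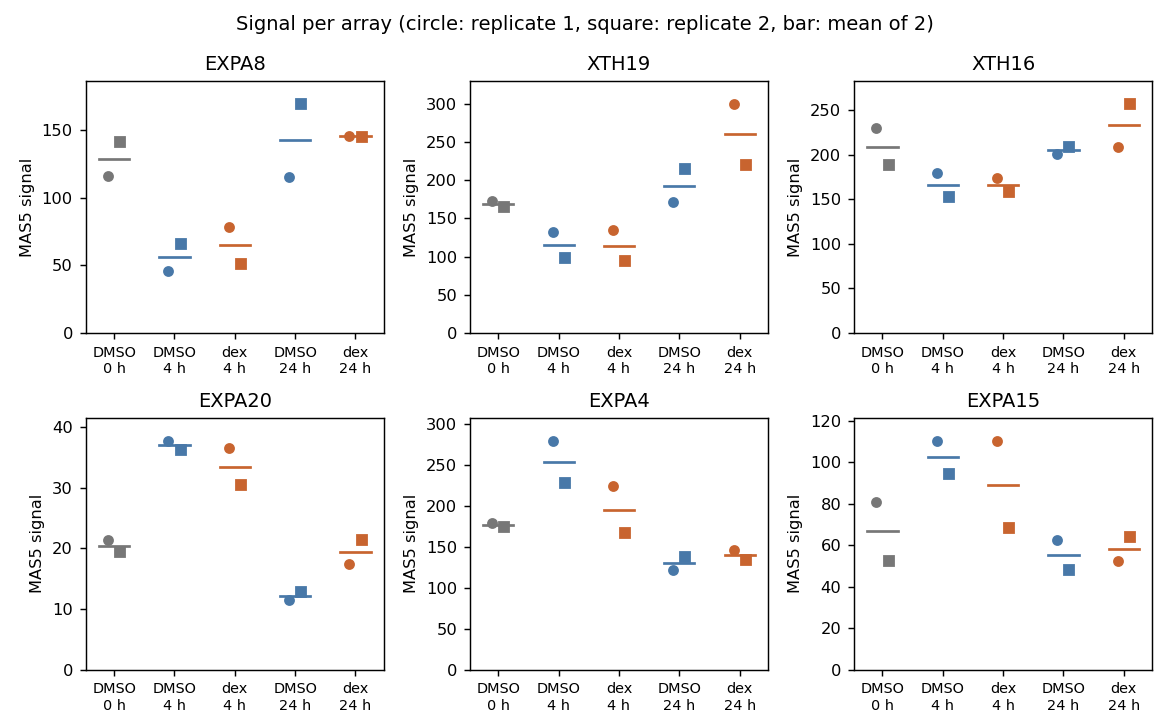
MAS5 signal on each of the 10 arrays (y axis, linear, from 0) by treatment and time (x axis) for the 6 genes that passed between 4 h and 24 h; dex is dexamethasone. EXPA8, XTH19 and XTH16 have their lowest group means at 4 h in both treatments, and EXPA20, EXPA4 and EXPA15 have their highest there.

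The 3 genes that were lower at 24 h are all alpha-expansins. EXPA4 (AT2G39700, chromosome 2) had signals of 279 and 227 with DMSO and 224 and 167 with dexamethasone at 4 h. The signals at 24 h were 122 and 138 with DMSO and 146 and 134 with dexamethasone. The times did not overlap, and the lowest array at 4 h was replicate 2 of dexamethasone, one of the arrays that stood apart. The log2 change was -0.70 (SE 0.13, limma adjusted p = 0.0103), and without both arrays that stood apart it was -0.76 (limma adjusted p = 2.5e-04). At 0 h the signals were 179 and 174, between those of DMSO at 4 h and at 24 h.

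EXPA15 (AT2G03090, chromosome 2) had signals of 110.3 and 94.1 with DMSO and 110.3 and 68.0 with dexamethasone at 4 h. Those at 24 h were 62.7 and 48.0 with DMSO and 52.4 and 63.9 with dexamethasone. The times were separated by a small gap, with the array of dexamethasone at 4 h that stood apart nearest to the 24 h arrays. The log2 change was -0.70 (SE 0.16, limma adjusted p = 0.0256). It was lost without any 1 of 5 arrays, namely either array of DMSO at 4 h, replicate 2 of DMSO at 24 h, replicate 1 of dexamethasone at 4 h and replicate 1 of dexamethasone at 24 h, with adjusted p between 0.0729 and 0.0954. Without both arrays that stood apart it was -0.95 (limma adjusted p = 1.5e-04).

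EXPA20 (AT4G38210, chromosome 4) had signals of 37.8 and 36.2 with DMSO and 36.5 and 30.4 with dexamethasone at 4 h. At 24 h they were 11.5 and 12.7 with DMSO and 17.4 and 21.4 with dexamethasone. Of the 24 h arrays only replicate 2 of dexamethasone exceeded percentile 40, so the lower level cannot be told from background and the size of the fall is uncertain. The log2 change was -0.998 (SE 0.18, limma adjusted p = 0.00661), or -0.70 with a constant of 16 and -0.50 with a constant of 32 added before the logarithm. The calls of EXPA8, XTH19, EXPA4 and EXPA20 held without any 1 array. EXPA8 had 1.20, XTH19 0.89, XTH16 0.37 and EXPA20 -1.03 without both arrays that stood apart, and all 4 passed.

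In the fit over all 8 arrays the 7 XTH genes tested had log2 changes from 4 h to 24 h between 0.05 for XTH20 and 0.94 for XTH19, with a median of 0.39. XTH20 turned to -0.07 without both arrays that stood apart, and within DMSO alone XTH20 and XTH26 had -0.31 and -0.29. The DMSO signals of XTH26 were 23.8 and 45.1 at 4 h and 17.9 and 37.7 at 24 h. Its 17.9 was on an array that stood apart, so the -0.29 rests on that array. Of the 12 expansins 4 were above 0, and their median was -0.20. Over all 14575 probe sets 52.8% were above 0 and the median was 0.01. These counts describe the 2 families and were not tested against each other. In 7 of the 19 genes the 4 arrays of one time did not overlap those of the other, where 14.2% of all probe sets had this. The 7 were the 6 genes that passed and EXLB1, an expansin-like gene with signals between 55.0 and 58.2 at 4 h and between 34.97 and 52.5 at 24 h, whose log2 change of -0.40 (SE 0.12, limma adjusted p = 0.0872) did not pass.

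Other genes were less even. XTH33, which is predicted to span or anchor in the plasma membrane, had 0.43 (SE 0.24, limma adjusted p = 0.363), with signals between 16.0 and 35.4 at 4 h and between 25.6 and 53.4 at 24 h. EXPB1, a beta-expansin, had -0.47 (SE 0.23, limma adjusted p = 0.274), with 24 h signals between 10.0 and 23.2, near percentile 40. XTH32 and EXPA9 had 0.19 and -0.01. EXLA1, EXLA2 and XTH20 had 0.17, 0.24 and 0.05, and none of these 5 passed. Without both arrays that stood apart XTH33 had 0.68 (limma adjusted p = 0.0887) and EXLA1 0.31 (limma adjusted p = 0.0914).

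EXPB3 (AT4G28250, chromosome 4), the other beta-expansin tested, depended on 1 array. Its signals were 147 and 137 with DMSO and 130.1 and 54.8 with dexamethasone at 4 h. The 24 h signals were 74.9 and 78.3 with DMSO and 92.8 and 94.2 with dexamethasone. The lowest signal, 54.8, was that of the dexamethasone array at 4 h that stood apart and was below every 24 h array, while the other 3 arrays at 4 h lay above all of them. Over both treatments EXPB3 had -0.36 (SE 0.25, limma adjusted p = 0.478), and had -0.64 without both arrays that stood apart (SE 0.12, limma adjusted p = 0.00179), a setting under which 7 of the 19 genes passed, EXPB3 and the 6 above.

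**Figure D2:**
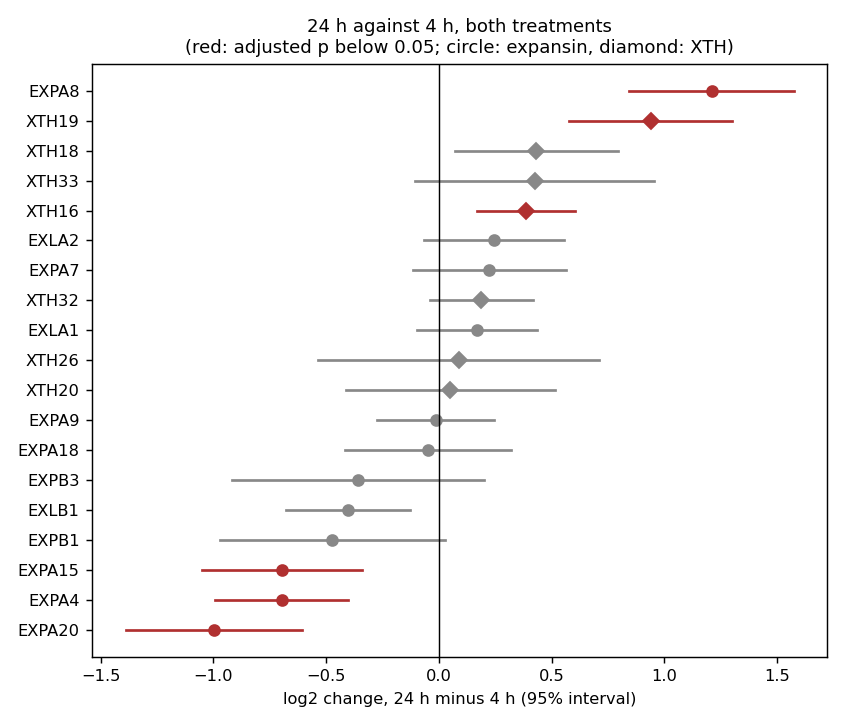
Log2 change of the signal from 4 h to 24 h (x axis) with its 95% interval for the 19 genes tested (y axis), ordered by size. The changes run from -0.998 for EXPA20 to 1.21 for EXPA8, and the XTH genes, drawn as diamonds, lie between 0.05 and 0.94 with all 8 arrays, of which XTH20 was -0.07 without both arrays that stood apart.

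In DMSO alone, 4 h was also compared with 0 h, a comparison that shares the 4 h DMSO arrays with the one above. EXPA8 fell by 1.15 on the log2 scale (SE 0.23, limma adjusted p = 0.0236), from signals of 116 and 141 at 0 h to 46.2 and 66.0. It was the 1 gene of 19 that passed, where 2.63% of all probe sets passed, 1.1% as higher and 1.52% as lower, and removal of any single array of these 4 ended its call, with limma adjusted p between 0.0538 and 0.217. Without both arrays that stood apart, which are not among these 4 but enter the estimate of the spread, EXPA8 passed with adjusted p = 0.00109 and EXPA4, at 0.50, with adjusted p = 0.0473 in limma. XTH19 had -0.54, EXPA7 -0.51 and XTH33 -0.49, while EXPA20 had 0.74, EXPA15 0.61, EXLB1 0.54 and EXPA4 0.50. These 7 did not pass with all arrays. Of the 19 genes 6 were above 0, all expansins, with a median of -0.14, against 49.3% of all probe sets. Both arrays at 4 h lay above both at 0 h in 6 genes and below in 7, where 21.9% and 22.6% of all probe sets did. An unadjusted limma p below 0.05 was found for 7 of the 19 genes and for 13.6% of all probe sets.

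Between 0 h and 24 h in DMSO, a full day apart, 0 of the 19 genes passed in limma, as did 0% of all probe sets. At an unadjusted p below 0.05 there were 2, EXPA20 at -0.58 and EXPA4 at -0.43 (limma adjusted p = 0.971 for both), where 4.54% of all probe sets had one. The lowest values were those of XTH20 (-0.59), EXPA20, EXPB3 (-0.53) and XTH26 (-0.50), and the highest those of XTH19 (0.18), EXPA8 (0.12), XTH32 (0.03) and EXLB1 (0.01). In all, 4 of the 19 genes were above 0 with all arrays, against 50.2% of all probe sets, and 9 without both arrays that stood apart, 1 of which is among the 24 h DMSO arrays. Without those arrays XTH26 had -0.04, and XTH20 and EXPB3 had -0.68 and -0.50. XTH19, EXPA8 and XTH32 then had 0.34, 0.39 and 0.16, and EXLB1 turned to -0.11.

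The question of the study for these genes is whether dexamethasone changed them. At 4 h none of the 19 genes passed in limma, where 0.00686% of all probe sets did, and 2 had an unadjusted p below 0.05, EXPB3 and EXPA4, where 7.01% of all probe sets had one. EXPB3 had a log2 change of -0.72 (95% interval -1.33 to -0.10, adjusted p = 0.707), which rests on the 54.8 given above. It was -0.12 without both arrays that stood apart, and it passed at -1.31 without replicate 1 of dexamethasone at 4 h (limma adjusted p = 0.00926), which leaves that array alone in its group and assumed to vary like the other groups. EXPA4 had -0.37 (95% interval -0.72 to -0.03, limma adjusted p = 0.707), and -0.17 without both arrays that stood apart. XTH26 and XTH20 had -0.36 and -0.33, or -0.03 and -0.18 without those arrays, and the highest values were those of XTH33 (0.26), EXPA8 (0.19), EXPA7 (0.11) and EXLA1 (0.10). Without those arrays EXPA8 had 0.48 (limma adjusted p = 0.997), EXPA7 0.25, XTH33 0.05 and EXLA1 0.03.

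Of the 19 genes 5 lay above 0 at 4 h, with a median of -0.13, against 47.8% of all probe sets and a median of -0.01. Without both arrays that stood apart 9 lay above 0 and the median was -0.00. The count was 8 without replicate 1 of DMSO at 4 h and 2 without replicate 1 of dexamethasone at 4 h. In 3 genes, EXPA4, EXPB3 and EXLA2, both dexamethasone arrays lay below both DMSO arrays, and in 0 above, where 34.9% of all probe sets did not overlap.

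At 24 h none of the 19 passed in limma either, where 0.00686% of all probe sets did. With an unadjusted p below 0.05 there were EXLA1 and EXPA20, where 3.09% of all probe sets had one. EXLA1 (AT3G45970, chromosome 3), an expansin-like gene, had signals of 93.1 and 126 with DMSO and 139.8 and 159 with dexamethasone, and both dexamethasone arrays were higher. The change in EXLA1 was 0.45 (95% interval 0.11 to 0.78, limma adjusted p = 0.999), and 0.23 without both arrays that stood apart. Its 0 h and 4 h signals lay between 106 and 123 in all 3 groups, so the 24 h dexamethasone arrays held its highest signals. EXPA20 had 0.52 (95% interval 0.05 to 0.99, limma adjusted p = 0.999), on signals near or below percentile 40.

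XTH19 and XTH26 followed at 24 h with 0.42 and 0.39, or 0.26 and -0.07 without both arrays that stood apart, and neither passed. In this comparison the lowest values were those of EXPB1 (-0.31), EXPA8 (0.05), EXPA15 (0.07) and EXPA4 (0.10). Without those arrays EXPA8 turned to -0.21, EXPA15 had 0.25 and EXPA4 0.02. Of the 19 genes 18 lay above 0, with a median of 0.23, where 52.5% of all probe sets did and the median was 0.01. Without replicate 1 of DMSO at 24 h, one of the arrays that stood apart, 14 lay above 0 and the median was 0.15. In 6 genes, EXPA9, EXPA20, EXPB3, EXLA1, XTH19 and XTH20, both dexamethasone arrays lay above both DMSO arrays, as did 2621 of the 14575 probe sets, or 18% of them. The 24 h DMSO arrays are shared with the comparison of 24 h with 0 h.

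**Figure D3:**
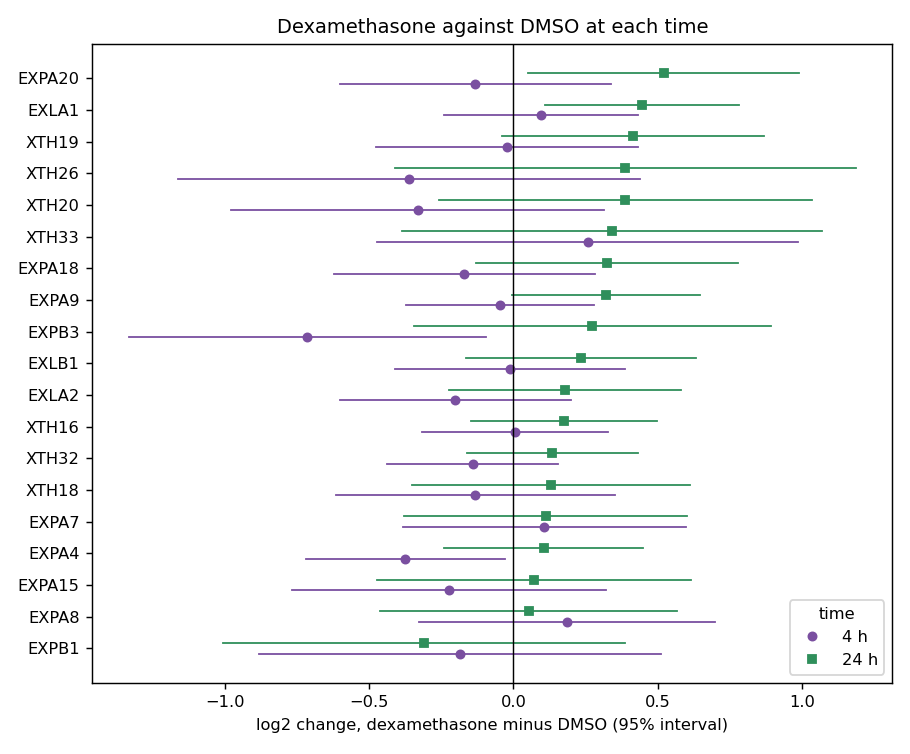
Log2 change with dexamethasone against DMSO (x axis) at 4 h and at 24 h, with 95% intervals, for the 19 genes tested (y axis), ordered by the value at 24 h. Values lie between -0.72 and 0.26 at 4 h and between -0.31 and 0.52 at 24 h, and no gene passed at either time.

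The effect of dexamethasone was not shown to differ between the times for any of the 19 genes: 0 passed in limma, as did 0% of all probe sets, and EXPB3 alone had an unadjusted p below 0.05, where 5.48% of all probe sets had one. EXPB3 had a difference of 0.99 (24 h minus 4 h, SE 0.40, limma adjusted p = 0.832), which passed at 1.58 without replicate 1 of dexamethasone at 4 h (limma adjusted p = 0.0238). XTH26, XTH20 and EXPA20 had 0.75, 0.72 and 0.65, and EXPA8, EXPB1, EXPA7 and XTH33 had -0.13, -0.12, 0.00 and 0.09. The difference without both arrays that stood apart was 0.37 for EXPB3, -0.05 for XTH26, -0.69 for EXPA8, -0.52 for EXPB1, -0.46 for EXPA7 and -0.01 for XTH33. Of the 19 genes 17 lay above 0, against 53.0% of all probe sets. The median difference was 0.35, and it was 0.14 without both arrays that stood apart, 1 of which lies on each side of it. In the average over both times 0 of the 19 passed in limma, where 0.0137% of all probe sets did, and EXLA1 alone had an unadjusted p below 0.05 (log2 change 0.27, limma adjusted p = 0.999, and 0.13 without both arrays that stood apart), where 4.25% of all probe sets had one. On average 12 of the 19 genes lay above 0, against 49.4% of all probe sets, and in 0 genes did the 4 arrays of one treatment not overlap the other 4, where 2.07% of all probe sets did not, 0.961% with dexamethasone above and 1.1% below. XTH33, XTH19 and EXPA20 had averages of 0.30, 0.20 and 0.19, and EXPB1, EXPB3, EXPA4 and EXPA15 had -0.25, -0.22, -0.13 and -0.08. With both arrays that stood apart left out, XTH33 had an average of 0.04, EXPB1 -0.17 and EXPA4 -0.07, while EXPB3 and EXPA15 turned to 0.06 and 0.18.

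EXPA7 (AT1G12560, chromosome 1) and EXPA18 (AT1G62980, chromosome 1) are alpha-expansins of root hair cells, and XTH26 (AT4G28850, chromosome 4) is an XTH enzyme known from root hairs. EXPA7 had signals of 57.2 and 46.4 at 0 h, 32.1 and 37.8 with DMSO at 4 h and 42.3 and 33.9 with dexamethasone at 4 h. At 24 h its signals were 32.3 and 52.7 with DMSO and 45.3 and 44.8 with dexamethasone. The groups at 4 h and 24 h overlapped, and dexamethasone gave log2 changes of 0.11 at both times (95% interval -0.38 to 0.60 at each, limma adjusted p = 0.932 and 0.999). Without both arrays that stood apart these were 0.25 and -0.21. Over the times EXPA7 had 0.22 (SE 0.15, limma adjusted p = 0.468).

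EXPA18 had signals of 48.6 and 79.9 with DMSO at 24 h and between 62.9 and 87.8 elsewhere, and XTH26 had 17.9 and 37.7 with DMSO at 24 h and between 18.7 and 45.8 elsewhere. In DMSO at 24 h all 3 were lower on replicate 1 than on replicate 2, and in dexamethasone at 4 h all 3 were lower on replicate 2 than on replicate 1, so each was the lower of its pair on both arrays that stood apart. GH9C1, an endoglucanase and the 1 tested gene of a further 16 root hair loci, had 52.4 and 75.4 with DMSO at 24 h and 62.0 and 54.4 with dexamethasone at 4 h, the same order. This order was not particular to root hair genes, and EXPA4, EXPB3 and XTH19 were among the other members that had it. Of the 19 genes, 15 were lower on the DMSO array that stood apart than on its replicate, and 16 on the dexamethasone array. Of 15 root loci 6 were tested, and the summed signal of the 7 with a probe set was between 4194 and 5375 on all arrays, with 4500 and 5375 on the arrays that stood apart. Such a sum follows its strongest genes and does not describe each member. With dexamethasone at 4 h only 1 of the 6 tested root genes had a log2 change above 0, with a median of -0.29. The part of the defence genes or of root hair cells in these differences was not tested.

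Some markers of other organs passed from 4 h to 24 h, where 7.06% of all probe sets did. Of 4 tested leaf genes, all of the photosystems, 1 passed from 4 h to 24 h: LHCB4.2, a minor antenna protein, at 0.92 (limma adjusted p = 8.9e-04). The summed leaf signal was 6846 and 7132 with DMSO at 4 h and between 7769 and 8375 with dexamethasone at 4 h. For 24 h it was between 7967 and 8837 with DMSO and 10335 and 10663 with dexamethasone, so dexamethasone arrays held the higher sums at each time. Of 2 guard cell genes 1 passed, AT1G22690 at 0.41 (limma adjusted p = 0.0195), and of 6 root genes 0 passed, with a median of -0.16. With dexamethasone at 24 h all 6 root genes were above 0, with a median of 0.19, and at 4 h 1 was, with a median of -0.29. As the leaf genes are all of the photosystems, a change in their RNA per cell cannot be told from a change in leaf tissue. The part of leaf, guard cell or root tissue in the changes of the expansins and XTH genes was not tested.

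Over all 19 genes, 16 were lower on replicate 2 than on replicate 1 of dexamethasone at 4 h, with a median log2 difference of -0.23, and 15 were higher on replicate 2 than on replicate 1 of DMSO at 24 h, with a median of 0.23. Among all probe sets kept, 44.5% and 51.6% were higher on replicate 2 in these groups. DMSO at 4 h, in which no array stood apart, also had 14 of 19 lower on replicate 2, with a median of -0.22. In DMSO at 0 h 11 genes were lower on replicate 2, and in dexamethasone at 24 h 10 were, with medians of -0.01 in both. The dexamethasone medians, -0.13 at 4 h and 0.23 at 24 h, are differences between means of 2 arrays and include these same arrays. Their sizes are therefore not compared with differences between single arrays, and the part of the replicate differences in them was not tested.

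**Figure D4:**
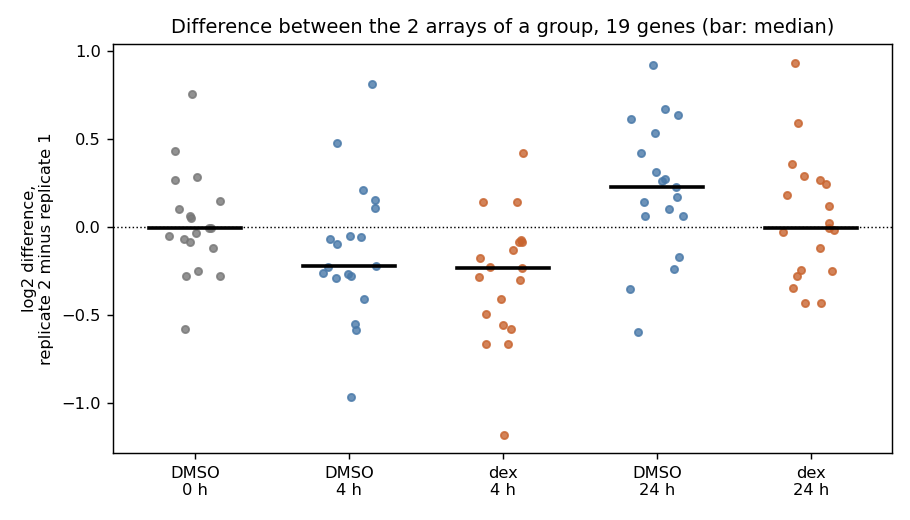
Log2 difference between replicate 2 and replicate 1 of each group (y axis) for the 19 genes, by treatment and time (x axis), with the median as a bar; dex is dexamethasone and points are spread sideways for visibility. The medians are near 0 for DMSO at 0 h and dexamethasone at 24 h, -0.22 for DMSO at 4 h, 0.23 for DMSO at 24 h and -0.23 for dexamethasone at 4 h.

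Other wall genes were read beside these families, from lists written with earlier results known. Of 3 tested genes of xyloglucan synthesis, CSLC04, a synthase of the glucan backbone of xyloglucan, rose from 4 h to 24 h (log2 change 0.49, SE 0.09, limma adjusted p = 0.00738). Its signals were 229.8 and 203 with DMSO and 219.6 and 208 with dexamethasone at 4 h. By 24 h they were 281 and 319 with DMSO and 284 and 337 with dexamethasone, with no overlap between times. CSLC5 and CSLC6 had 0.21 and 0.01 and did not pass. Of 8 tested genes of the cellulose list, CSLA03, of a family of mannan synthases, and GH9B7, an endoglucanase, passed as higher at 0.41 and 0.39. In that list 0 passed as lower, and 4 of the 8 were above 0, with a median of 0.08. Over all probe sets 3.94% passed as higher and 3.12% as lower from 4 h to 24 h. Of 5 pectin genes 0 passed in either direction, with a median of 0.10 and 0 with an unadjusted p below 0.05 in limma. GIGANTEA (GI), a component of the circadian clock and 1 of 2 tested genes of the light list, also passed as higher, at 0.55 (limma adjusted p = 0.0258). Of 3 touch, 2 wall protein, 3 proton pump, 3 auxin and 4 brassinosteroid and gibberellin genes tested, 0 passed in limma from 4 h to 24 h. With dexamethasone none of the 16 genes of xyloglucan, cellulose and pectin passed at 4 h or 24 h, where 0.00686% of all probe sets did at each time. Their medians at 4 h and 24 h were -0.19 and 0.08 for xyloglucan synthesis, -0.17 and 0.13 for the cellulose list and 0.09 and 0.13 for pectin. These medians include both arrays that stood apart and were not computed without them.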

How the data were processed

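The deposited values are linear signal intensities. Per the submitters' processing notes the authors used MAS5 and GCOS, and no version is stated in those notes. After removal of 2% of the values at each end, the mean was 100.01 on every array, so the arrays had been scaled to a common mean, which hides changes in total messenger RNA. The number of arrays limits the precision.

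Of 22810 probe sets 64 control probe sets were left out. Names came from the platform annotation (13513 probe sets with 1 gene, 503 with several, 8730 unnamed) and from RefSeq for TAIR10.1, where all 27 genes matched. Values were analysed as log2(signal + 4.35), where the constant is percentile 20 of the table, which understates log2 changes of weak signals. The filter for 2 or more arrays above percentile 40 passed 14575 probe sets. The tests, all two-sided, used lmFit and eBayes with trend from limma 3.58.1 (R 4.3.3), with 1 mean per group over 10 arrays, or with time or treatment as covariate over the 8 arrays of 4 h and 24 h, each with 5 residual degrees of freedom. Adjusted p-values are Benjamini-Hochberg values over all probe sets kept, with a threshold of 0.05. The fit was tested on simulated data. Tables and figures used Python 3.11.15, pandas 2.3.3 and matplotlib 3.10.9.

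The members, the lists and the rules were chosen with earlier results of these data known. Named genes are EXPA7, each member that passed, the 4 highest and 4 lowest members of each comparison, and up to 3 members of a list. EXLB1, EXPA9, EXLA2, XTH18 and other members outside this rule were named after their values were seen. The labels state no pairing by replicate number, and the main fits used none. Deviations from the group means correlated between groups with r from -0.42 to 0.18. The -0.42 was that of DMSO at 24 h with dexamethasone at 4 h, whose arrays that stood apart have opposite replicate numbers. Such correlations cannot decide whether samples were paired. Alternatives were other constants, filters, normalization, variance and block settings and the removal of arrays.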

Additional observations from a re-analysis of the deposited data

How the results depend on the processing

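Counts of genes that passed and medians were taken as kept within 1.5 times or within the spread between replicates. That spread, an SD of log2 values, was 0.187. It exceeded most of the medians, so this rule cannot show that those held their size or sign. With single arrays left out, the median for dexamethasone at 4 h ran from -0.229 to -0.003. It ran from -0.026 to 0.160 for the average over both times and from -0.074 to 0.268 between 4 h and 24 h. By this rule the counts and medians were kept, except as follows. With no filter, which tests more probe sets, no gene passed between 0 h and 4 h in DMSO (0, against 1) and 4 passed between 4 h and 24 h (against 6). Without both arrays that stood apart 2 passed between 0 h and 4 h, where 639 of all 14575 probe sets did, and the median difference of the dexamethasone effect was 0.14 (against 0.35). With 1 array left out at a time, the number that passed was 0 to 1 for dexamethasone at 4 h, 0 to 1 for the difference between times, 0 to 1 between 0 h and 4 h and 4 to 6 between 4 h and 24 h. The replicate block gave 5 between 4 h and 24 h, since XTH16 did not pass (limma adjusted p = 0.0632), and the same counts elsewhere. XTH16 also missed the threshold with no filter (0.0603) and without the variance trend (0.0767), EXPA15 with no filter (0.059), and EXPA8 between 0 h and 4 h with no filter (0.0653) and without the trend (0.0656), where EXPA20 passed (0.0402). Except for the stated effects of fewer arrays or more probe sets, the cause was not tested. No value that passed changed sign under any alternative. A choice among probe sets did not arise, since each gene had 1. Signals near percentile 40, as for EXPA20, EXPB1, XTH20 and XTH26, limit the sizes given for these genes.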
